A study of Mus musculus with 18 samples.

Results

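The late phase of the response to a cell wall extract was taken as the change from 1 h to 4 h after treatment. Its members were the 6 arrays labelled 4 hr or 4 hrs and the 6 arrays labelled 1 hr, 12 of the 18 arrays of the series, and the other 6 arrays, labelled time zero control and called 0 h here, gave the starting level. All 18 arrays measured total RNA of mouse immune cells on a short-oligonucleotide expression array. The text of the series speaks of knockout mice given the extract, but the labels used here name no genotype, strain, sex, age, cell type or dose for any array, so each time is described as a whole. The titles carry array codes, 12 to 22 on 6 arrays, 32 to 37 on 6 and 44 to 54 on 6. Every range held a pair of arrays of each time and was fitted as a block. What the ranges stand for is not given, and nothing says that arrays of 1 time came from separate animals, so the p-values measure the spread between these samples.

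Cells that sense microbial cell walls through Toll-like receptor 2 and related receptors answer in waves. Immediate early genes such as Fos, Egr1 and the Nr4a nuclear receptors are switched on by factors already present in the cell, and many of their transcripts carry elements that speed their decay. Later genes often wait for newly made proteins, for the opening of chromatin, or for interferon that the cells secrete and sense in turn. Transcripts of the resting state can be withdrawn at the same time.

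The values are MAS5 signals on a linear scale, on which the trimmed mean of every array is 500.0. The median signal of an array lay between 86.2 and 108.1 at 1 h and between 74.7 and 87.5 at 4 h. Changes are given as differences of log2(signal + 16) with standard errors (SE) from a limma fit, n = 6 arrays a time throughout, and folds are on that scale, which understates the change of dim genes. Adjusted p-values are Benjamini-Hochberg values over 45037 probe sets, with a threshold of 0.05. The 1 h array with code 14 stood apart from the other 1 h arrays. Its mean log2 level over 27 immediate early genes was 9.77, against 10.63 to 11.13 on the other 5 arrays at 1 h and 9.31 to 9.62 at 0 h. Some genes read higher on it than on every 0 h array, as Cxcl2 at 7880 against 268 to 1579 and Tnf at 1557 against 34.3 to 263. Others lay within the 0 h values, as Ccl3 at 634 against 132 to 795 and Il10 at 267 against 36.3 to 315. Its place in the 1 h group rests on its label, which the low levels leave in doubt and which was not tested further. Many results that rest on it are therefore also given without it. Where no such value is given, the size of a change may depend on that array.

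From 1 h to 4 h, more transcripts were lost than gained on the deposited scale. Of 18193 genes, each represented by 1 probe set, 1179 were called higher at 4 h (6.48%) and 2600 lower (14.3%). Over single probe sets, 2242 of 45037 were higher (4.98%) and 5122 lower (11.4%), so 69.6% of the calls were falls. Among 11702 genes above the median of their array on at least 4 arrays, 9.83% were higher and 21.1% lower, and most listed genes below were of this brighter kind, so a list with about these shares of calls does not stand apart. The share of falls depended on the scaling of the arrays. With quantile normalization 2778 probe sets rose and 3200 fell, a share of 53.5%, and with the median of each array set equal 4006 rose and 2197 fell, a share of 35.4%. The median of all probe sets moved by -0.16 as deposited and by 0.08 with equal medians, so changes near that size have no settled direction. In RNA from a mixed sample, fewer cells of a type and less RNA per cell cannot be told apart.

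Against the starting level the called genes had different histories, described here from contrasts that share the 1 h arrays and so are not independent. Among the rises, 1042 genes had a 1 h mean less than 1.5-fold from the 0 h mean, which is called a late rise here, and 55 had already risen at least 2-fold by 1 h, a continued rise. Among the falls, 2507 genes left a level that at 1 h was still less than 1.5-fold from the start, a late loss, and 12 came down from a 1 h level at least 2-fold above the start, a transient course. The 2-fold limit fell between Apom, just inside with a log2 difference of 1.00 between 1 h and 0 h, and Fos, just outside with 0.97. Without the array with code 14, 905 late rises, 59 continued rises, 2091 late losses and 28 transient genes were counted, and 11 of the 12 transient genes were among the 28.

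The largest late rises were in genes with low signals at 1 h. Itgb8 encodes the beta 8 integrin subunit, a partner of alpha v in the activation of latent TGF-beta. Its signal ran from 1.58 over a median of 37.2 to 62.0 at 1 h and from 558 over 771 to 1064 at 4 h. The groups did not overlap, and the log2 change was 4.30 ± 0.39 (SE), 19.7-fold, with an adjusted p of 2.29e-06. Marco, a scavenger receptor that binds bacteria, had a lowest, median and highest signal of 6.87, 10.8 and 410 at 1 h and of 588, 904 and 1723 at 4 h. Every 4 h array exceeded every 1 h array, and the change was 4.13 ± 0.55 (SE) with an adjusted p of 7.5e-05. The 1 h level differed by range, at 119 and 410 on codes 32 to 37 and 6.87 to 11.3 on the others. At 4 h codes 32 to 37 read 588 and 1044, and the others 666 to 1723. Slc7a11, the cystine transporter that feeds glutathione synthesis, had signals of 52.1 to 267 at 1 h with a median of 75.1, and of 864 to 2462 at 4 h with a median of 1920. It rose by 3.91 ± 0.21 (SE) with an adjusted p of 1.98e-08.

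The other genes among the 15 largest rises that began late or rose less than 2-fold in the first hour were of several kinds. Ccl5, a chemokine for T cells and monocytes, went from a median of 173 to 4669 and rose by 4.27 ± 0.65 (SE). On codes 12 to 22 it read 150 and 149 at 1 h and 19682 and 12739 at 4 h. On codes 32 to 37 it read 289 and 308 at 1 h and 1552 and 714 at 4 h. On codes 44 to 54 it read 173 and 172 at 1 h and 6783 and 2556 at 4 h. Lcn2, which captures bacterial siderophores, went from 87.0 to 1521 and rose by 3.83 ± 0.40 (SE). Steap4, a metalloreductase, went from 6.53 to 266 and rose by 3.56 ± 0.40 (SE). Cxcl5, a neutrophil chemokine, rose by 3.77 ± 0.64 (SE), and its arrays overlapped between the times. Hivep3, a zinc finger protein, rose by 3.85 ± 0.27 (SE) on its brightest probe set, while another probe set of the gene fell by 0.52 with an adjusted p of 0.0321. These calls held in each of the 28 alternatives run.

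**Figure D1:**
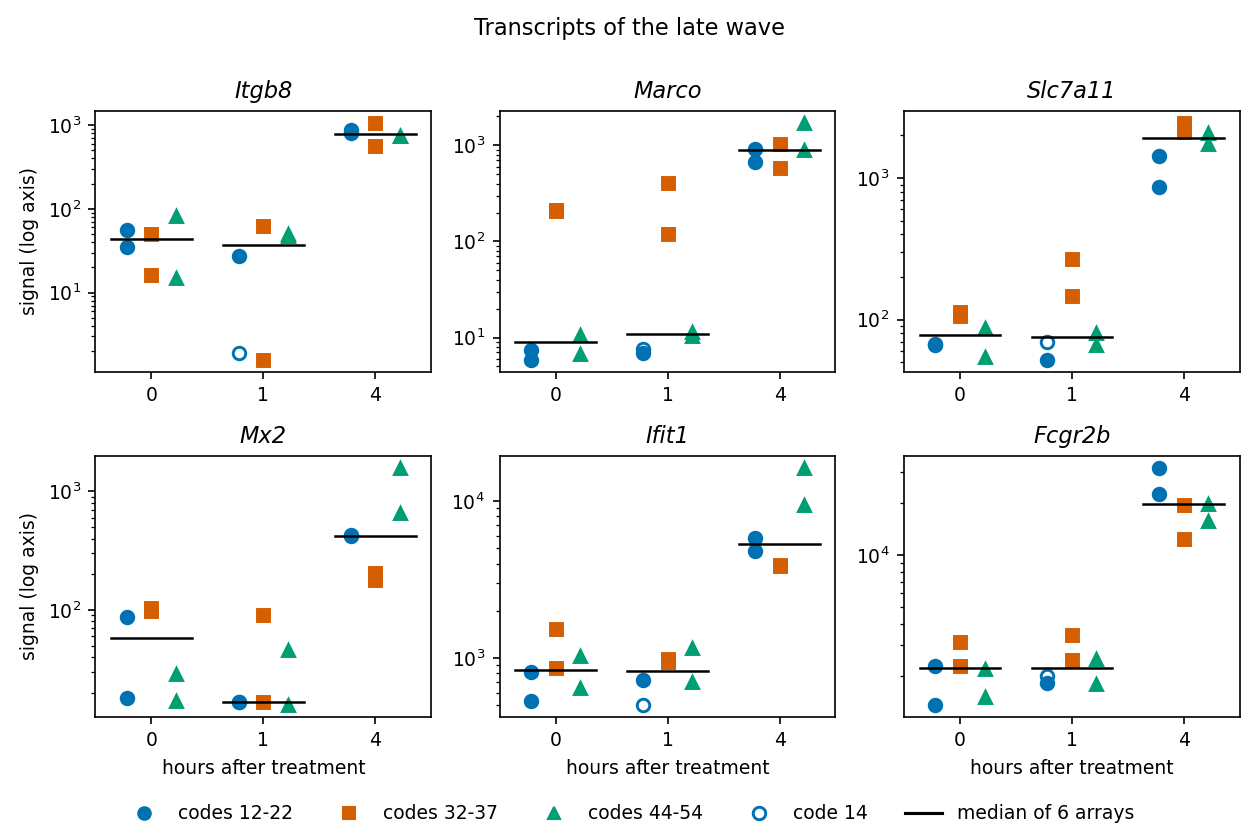
Signal on a log axis at 0, 1 and 4 hours for 6 genes of the late wave, 1 point per array, with shape and colour for the range of array codes, an open circle for code 14 and a bar at the median of 6 arrays. The 4 h arrays of Itgb8, Marco, Slc7a11, Mx2, Ifit1 and Fcgr2b all lie above every 1 h array, and the 0 h and 1 h medians lie close together for all but Mx2.

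Genes that had already risen at 1 h and rose again were led by secreted products. Saa3, an acute phase protein, had a lowest, median and highest signal of 276, 647 and 1923 at 1 h and of 17689, 28447 and 38854 at 4 h. It had the largest rise of all genes called, 5.19 ± 0.28 (SE) or 36.5-fold, with an adjusted p of 2.29e-08. Cxcl3, a neutrophil chemokine, had signals of 106 to 2591 at 1 h with a median of 1603, and of 16161 to 38176 at 4 h with a median of 23582. The rise was 4.53 ± 0.51 (SE), and 3.93 without the array with code 14. Acod1, which makes itaconate, went from a median of 5123 to 25724, a rise of 3.20 ± 0.57 (SE), with the 1 h array of code 14 at 220 and the other 1 h arrays at 2054 or more. Fpr2, a receptor for formylated and other peptides, rose by 3.94 ± 0.31 (SE), and Hcar2, the receptor for nicotinic acid and beta-hydroxybutyrate, by 4.24 ± 0.39 (SE). Ccl12 and Ccl4, chemokines for monocytes and other leukocytes, rose by 3.28 ± 0.43 (SE) and 3.23 ± 0.41 (SE).

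Most measured effectors and chemokines also rose. Of 27 measured antimicrobial and inflammatory effectors, 22 rose and none fell, beside 9.83% higher and 21.1% lower among the brighter genes. Their median log2 change was 2.09 beside -0.15 for all genes. Ptges, the prostaglandin E synthase, rose by 3.0 ± 0.35 (SE), Gch1, which starts the synthesis of tetrahydrobiopterin, by 2.59 ± 0.28 (SE), and the collagenase Mmp13 by 3.08 ± 0.20 (SE). Of 22 chemokines 15 rose and none fell, beside the same shares, with a median of 1.64. The other 7 were not called, and 12 rose without the array with code 14. Most of the 18 cytokines did not pass. Of these 7 rose and none fell, beside the same shares, with a median of 0.97, and 11 rose with equal array medians. Without that array 4 rose, and Tnfsf9, a ligand of the TNF family, fell by 1.64 with an adjusted p of 0.00231, where the fit on all arrays gave -0.85 and 0.448. Csf3, the growth factor of neutrophils, rose by 2.26 ± 0.32 (SE), and by 2.05 without that array. Csf2, another growth factor of myeloid cells, gave 2.40 ± 0.72 (SE) with an adjusted p of 0.0303. At 4 h it read 2725 and 757 on codes 12 to 22 and 22.8 to 172 on the others. Its call was lost without any 1 of 5 arrays. The values were 1.98 and 0.0791 without code 14, 2.30 and 0.0623 without code 54, and 1.78 and 0.0633 without code 16. They were 2.20 and 0.0694 without code 22, and 2.40 and 0.056 without code 46.

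Interferon response genes had the highest share of rising members among the 24 lists. Of 28 measured members, 25 rose and none fell, beside 9.83% and 21.1% of the brighter genes. In 14 of them all 4 h arrays lay above all 1 h arrays, against 2.92% of all genes. The median log2 difference was -0.05 between 1 h and 0 h and 1.53 between 4 h and 1 h. Mx2, an antiviral GTPase, had a lowest, median and highest signal of 15.8, 16.8 and 90.0 at 1 h and of 178, 424 and 1583 at 4 h, a rise of 3.37 ± 0.52 (SE) with an adjusted p of 0.000285. Ifit1, which binds viral RNA ends, had signals of 503 to 1166 with a median of 832 at 1 h and of 3875 to 16290 with a median of 5345 at 4 h. It rose by 2.95 ± 0.31 (SE) with an adjusted p of 8.56e-06. Rsad2, the antiviral enzyme viperin, went from a median of 2709 to 16892 and rose by 2.86 ± 0.29 (SE), and Gbp2, a guanylate-binding protein, went from 658 to 4463 and rose by 2.81 ± 0.39 (SE). No array overlap was seen for these 4 genes. Without the array with code 14, 23 of the 28 rose.

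Interferon beta, a member of the cytokine list, and a separate list of interferon and cytokine signalling genes were followed too. That separate list is not confined to genes upstream of the interferon response. Ifnb1, interferon beta, stayed dim, with medians of 49.2 at 1 h and 73.2 at 4 h and a difference of 0.41 ± 0.16 (SE) that did not pass, adjusted p 0.0986. Of 31 interferon and cytokine signalling genes 7 rose and 2 fell, beside 9.83% and 21.1% of the brighter genes, and 12 rose and 1 fell with equal array medians. The receptor Tnfrsf1b rose by 2.19 ± 0.19 (SE), the kinase Jak2 by 2.18 ± 0.23 (SE), the feedback inhibitor Socs1 by 2.18 ± 0.43 (SE) and the transcription factor Stat5a by 1.57 ± 0.20 (SE). Irf7, which amplifies type I interferon, differed by 0.49 ± 0.16 (SE) with an adjusted p of 0.0513.

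Promoter windows from RefSeq on GRCm38.p6, 250 bases before to 50 after each start, were searched on both strands for 6 motifs. They were an ISRE-like motif (GAAA, any 2 bases, GAAA, after the interferon-stimulated response element), a kappa B-like motif (GGGA, any 4 bases, CC), a wider motif that contains it (GGG, any 5 bases, CC), TGACGTCA (the cAMP response element), TGANTCA (AP-1) and the CArG box of serum response factor. The ISRE-like motif was in 11 of 24 windows of interferon response genes (45.8%), in 3.03% of 18109 windows of measured genes and in 3.44% of all 32851 windows. The kappa B-like motif was in 7 of 14 chemokine windows (50%) and in 25% of the windows of measured genes. The wider motif was in 57.1% of chemokine windows and in 61.9% of those of measured genes. The CArG box was in 5 of 30 windows of immediate early genes (16.7%) and in 1.35% of those of measured genes. Motifs were not confined to 1 list. TGANTCA was in 29.2% of interferon response windows, 21.4% of chemokine windows and 3.33% of immediate early windows, beside 6.38% for measured genes. The ISRE-like motif was in 14.3% of chemokine windows. TGACGTCA was in 6.67% of immediate early windows and in none of the interferon response or chemokine windows, beside 2.49% for measured genes. A match is a description of the letters, not of a bound factor. Of the 8 genes whose windows were chosen by their change, 4 had a match other than the wider kappa B motif before the start. Their 250 bases before the start are printed because they show such letters in a late rise (Marco, chr1:120505025-120505274, minus strand), in interferon response genes (Ifit1, chr19:34640639-34640888, plus strand, and Rsad2, chr12:26456453-26456702, minus strand) and in a transient gene (Dusp5, chr19:53528895-53529144, plus strand), with every such match in capitals.
Ifit1: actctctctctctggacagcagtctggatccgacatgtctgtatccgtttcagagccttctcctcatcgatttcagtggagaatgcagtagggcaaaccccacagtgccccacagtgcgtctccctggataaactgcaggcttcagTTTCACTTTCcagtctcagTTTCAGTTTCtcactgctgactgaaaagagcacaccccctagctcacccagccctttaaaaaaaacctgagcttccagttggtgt
Rsad2: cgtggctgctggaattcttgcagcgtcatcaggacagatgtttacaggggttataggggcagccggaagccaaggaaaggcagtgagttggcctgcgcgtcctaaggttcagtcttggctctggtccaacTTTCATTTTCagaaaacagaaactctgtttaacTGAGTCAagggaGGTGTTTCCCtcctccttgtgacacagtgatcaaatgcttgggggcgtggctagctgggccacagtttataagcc
Marco: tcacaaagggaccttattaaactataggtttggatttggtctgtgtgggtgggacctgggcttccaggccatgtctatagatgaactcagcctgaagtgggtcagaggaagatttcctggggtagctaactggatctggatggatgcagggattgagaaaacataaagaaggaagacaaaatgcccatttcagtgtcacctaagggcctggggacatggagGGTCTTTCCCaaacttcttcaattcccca
Dusp5: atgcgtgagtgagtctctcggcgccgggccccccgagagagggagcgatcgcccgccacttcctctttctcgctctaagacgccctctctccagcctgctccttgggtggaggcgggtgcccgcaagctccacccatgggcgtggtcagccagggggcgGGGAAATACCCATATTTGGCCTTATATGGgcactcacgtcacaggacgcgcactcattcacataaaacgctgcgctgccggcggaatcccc

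In these stretches Ifit1 held the ISRE-like motif at 104 to 95 and at 85 to 76 bases before its start, and Rsad2 held it at 120 to 111 beside a TGANTCA match and a kappa B-like match. Marco held a kappa B-like match 29 to 20 bases before its start. Dusp5 held a kappa B-like match that ran into the first of a pair of CArG boxes between 91 and 63 bases before its start. In the windows of Itgb8, Slc7a11, Nr4a1 and Gprin1, the other 4 genes, none of these letters other than the wider kappa B motif was found.

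Decay of early transcripts was clear for a small set of immediate early genes. Egr1, a zinc finger factor induced within minutes, had a lowest, median and highest signal of 1242, 6666 and 10829 at 1 h and of 622, 1008 and 2343 at 4 h, beside a median of 666 at 0 h. The arrays overlapped only through code 14, which was the lowest at 1 h, with 4840 next. The log2 change was -2.23 ± 0.35 (SE) with an adjusted p of 0.000376, and -2.58 without that array. Nr4a1, an orphan nuclear receptor, had signals of 1067 to 7160 with a median of 5198 at 1 h and of 318 to 1590 with a median of 1237 at 4 h. It changed by -1.96 ± 0.34 (SE) with an adjusted p of 0.000781, and the median at 0 h was 819. Fos, the AP-1 subunit, had signals of 11362 to 26121 with a median of 22703 at 1 h and of 2168 to 9271 with a median of 4438 at 4 h. It fell by 2.28 ± 0.22 (SE), adjusted p 4.58e-06, with no overlap of the groups, and its 4 h median lay below the 12220 of 0 h.

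The other transient transcripts were of several kinds. Dusp5, a phosphatase that acts on ERK, went from a median of 1658 to 555 and changed by -1.25 ± 0.34 (SE) with an adjusted p of 0.0192. Without the array with code 14, which read 251 where the other 1 h arrays read 1061 or more, the change was -1.57 with an adjusted p of 0.00106, and the call on all arrays was lost without the 1 h array with code 20, at -1.11 and 0.0502, and with array medians set equal, at -1.01 and 0.0718. Nfkbid, an IkB protein of the nucleus, went from 2810 to 1225 and changed by -1.19 ± 0.28 (SE), adjusted p 0.00741. Cdc42ep4, an effector of the GTPase Cdc42, changed by -1.03 ± 0.22 (SE), adjusted p 0.00338. Among the dim transient genes Lipm, a lipase, had a median of 52.7 at 1 h and 14.1 at 4 h, and the Atp8b3 flippase had 70.6 and 22.4. Even at 1 h both medians lay below the median signal of every array, 86.2 to 108.1 at that time, so these courses are near the background. The other transient calls were less firm, since Btg2 lost its call in 11 of 28 alternatives, with adjusted p-values up to 0.145, Gprin1 in 11, up to 0.0769, and Apom in 6, up to 0.0668, and for each gene most of these left out a single 1 h or 4 h array.

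**Figure D2:**
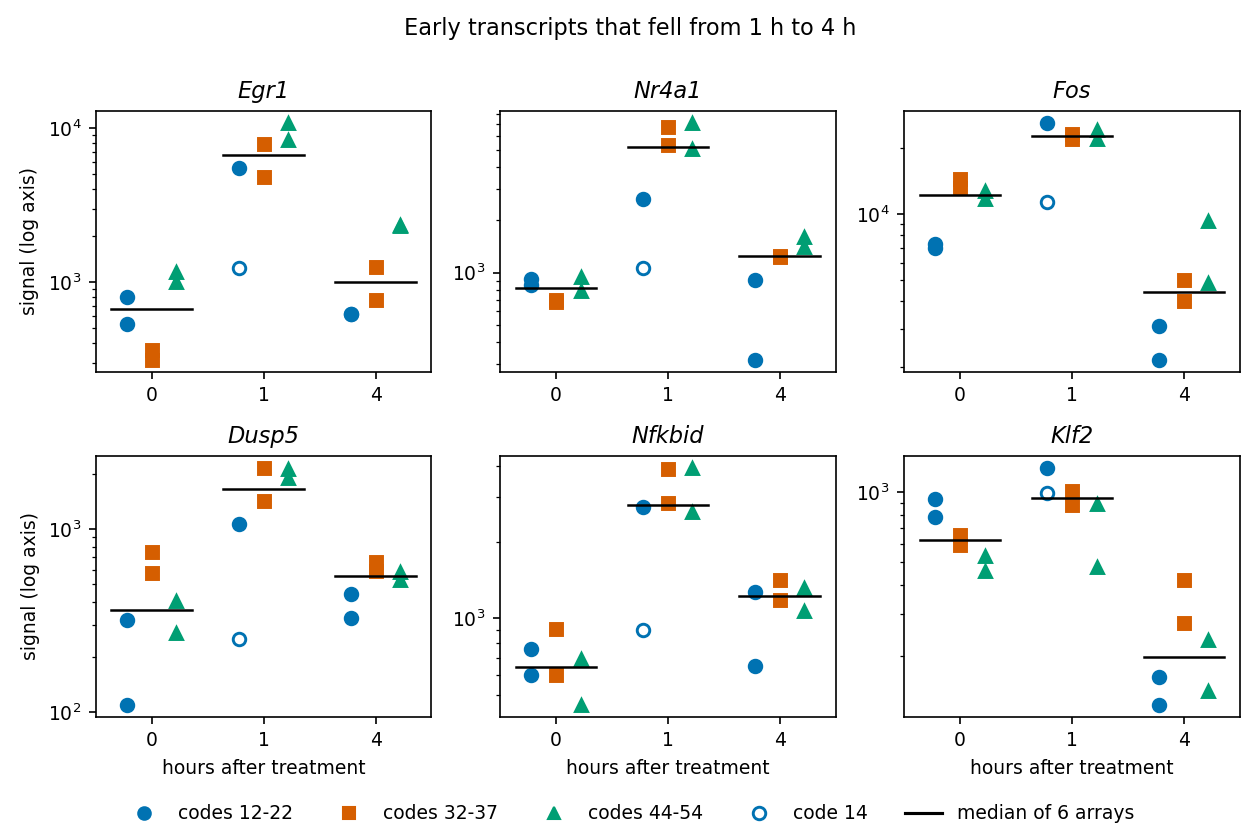
Signal on a log axis at 0, 1 and 4 hours for 6 transcripts that fell after 1 h, 1 point per array, with shape and colour for the range of array codes, an open circle for code 14 and a bar at the median of 6 arrays. The open circle is the lowest 1 h point for Egr1, Nr4a1, Fos, Dusp5 and Nfkbid but not for Klf2, and the 4 h median of Fos and Klf2 lies below that of 0 h.

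The immediate early list as a whole did not move one way. Of 27 members, all of the brighter kind, 9 fell and 5 rose, beside 21.1% and 9.83% of the brighter genes. The median was -0.31. There were 9 falls and 3 rises without the array with code 14, with a median of -0.69. The counts were 7 and 4 after quantile normalization and 6 and 7 with equal array medians. Klf2 and Klf4, Kruppel-like factors that restrain activation, fell by 2.01 ± 0.25 (SE) and 1.64 ± 0.25 (SE), each with no overlap of the groups and with 4 h medians below those of 0 h, 197 against 625 for Klf2 and 904 against 2553 for Klf4. Nr4a2 fell by 1.82 ± 0.35 (SE), a call lost without the block, adjusted p 0.0552. Atf3, a stress-induced repressor of the ATF family, rose instead by 1.76 ± 0.27 (SE), from a median of 2934 to 11757 with no overlap, after a 1 h level near that of the start. Nr4a3, the third member of its family, had a log2 difference of 1.73 ± 0.56 (SE) and an adjusted p of 0.0441, and 0.107 without the array with code 14. It lost the call in 14 of 28 alternatives. Egr2, Egr3 and Junb, whose 1 h medians were above every 0 h array, gave -0.30, -0.94 and 0.10 with no call.

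Several of the strongest first-hour transcripts did not pass the test between 1 h and 4 h in either direction. Tnf had medians of 13823 and 18352 and a difference of 0.81 ± 0.54 (SE), adjusted p 0.374. Cxcl1 and Cxcl2, neutrophil chemokines, gave 0.97 ± 0.62 (SE) and 0.42 ± 0.40 (SE), and Tnfaip3, which encodes the ubiquitin-editing inhibitor A20, gave 0.64 ± 0.46 (SE). Without the array with code 14 these 4 differences were 0.18, 0.19, 0.06 and 0.07. The same array decided other calls. Dusp1, the phosphatase of p38 and JNK, had medians of 19445 and 10731 and a difference of -0.70 ± 0.29 (SE), adjusted p 0.118, which became -0.94 with an adjusted p of 0.0189 without it. Zfp36, which encodes tristetraprolin, gave -0.38 ± 0.23 (SE), adjusted p 0.327, and -0.62 with 0.0172.

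Several NF-kB genes climbed further. Of 18 measured subunits and feedback genes 8 rose and 1, Nfkbid, fell, beside 9.83% and 21.1% of the brighter genes. The median was 0.68. Nfkb2, the p100 precursor of the alternative pathway, had a lowest, median and highest signal of 422, 1089 and 1865 at 1 h and of 3115, 3359 and 5401 at 4 h. It rose by 1.95 ± 0.27 (SE) with an adjusted p of 0.000107 and no overlap. Relb, its partner, rose by 1.48 ± 0.28 (SE), Rela by 0.64 ± 0.16 (SE) and the inhibitor Nfkbib by 1.46 ± 0.23 (SE). Nfkbia, the IkB alpha gene, kept medians of 34209 and 33508 and differed by -0.11 ± 0.17 (SE), adjusted p 0.745. Of 16 MAP kinase phosphatases and related feedback genes 3 rose and 4 fell, near the 21.1% of brighter genes that fell, with Dusp16 up by 2.69 ± 0.37 (SE), Dusp4 up by 1.29, and Dusp6 down, at -1.41 ± 0.37 (SE). The falls numbered 1 with equal array medians, and the call of Dusp6 was among those lost.

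Factors that govern the stability of mRNA were split. Of 24 members 5 rose and 5 fell, beside 9.83% and 21.1% of the brighter genes, so the falls were close to that share. The counts were 3 and 4 after quantile normalization and 9 and 4 with equal array medians. Zfp36l2, a relative of tristetraprolin that also binds AU-rich elements, had a lowest, median and highest signal of 8453, 9548 and 12948 at 1 h and of 563, 1523 and 2538 at 4 h. The 6 arrays at 4 h all lay far below those at 1 h, and the change was -2.89 ± 0.29 (SE) with an adjusted p of 6.62e-06. Zfp36l1, another relative, had signals of 7391 to 13462 with a median of 9960 at 1 h and of 994 to 2034 with a median of 1858 at 4 h, a fall of 2.59 ± 0.16 (SE), adjusted p 9.45e-08. Cnot6l, a deadenylase subunit, fell by 1.19 ± 0.14 (SE). In the other direction Zc3h12c, of the Regnase family of endonucleases, rose by 2.22 ± 0.45 (SE) from a median of 1359 to 5118, and Zc3h12a, the gene of Regnase-1, rose by 1.15 ± 0.34 (SE) with an adjusted p of 0.0282. The Zc3h12a call was lost in 6 of 28 alternatives, 5 of which left out a single array, with adjusted p-values up to 0.0973.

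Most of the 15 largest falls began from a level near that of the start at 1 h. The exceptions were Cnr2, Rgs2 and Arrdc3, described with the receptors and their regulators, which at 1 h were already 1.5-fold or more below it. Abcd2, a transporter of very long chain fatty acids into peroxisomes, had signals of 115 to 886 with a median of 531 at 1 h and of 1.09 to 12.1 with a median of 3.88 at 4 h. It fell by 4.27 ± 0.31 (SE), adjusted p 3.11e-07, to a level that the array can hardly tell from background. Sesn1, a sestrin that restrains mTORC1, went from a median of 4977 to 418 and fell by 3.21 ± 0.23 (SE). Klhl6, an adaptor of a ubiquitin ligase, went from 1684 to 176 and fell by 3.21 ± 0.30 (SE), and Gcnt1, which branches O-glycans, went from 2926 to 301 and fell by 3.28 ± 0.20 (SE). Mertk, the receptor for apoptotic cells, fell by 2.78 ± 0.30 (SE), from 1547 to 240. The groups of these 5 genes did not overlap, which their choice by the size of the fall largely fixes. Among all genes 5.52% had every 4 h array below every 1 h array.

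Among receptors for small ligands and chemoattractants falls outnumbered rises. Of 31 receptors for lipids, purines and chemoattractants 17 fell and 4 rose, beside 21.1% and 9.83% of the brighter genes, with a median of -0.55, and the falls numbered 12 after quantile normalization and 10 with equal array medians. Cnr2, the peripheral cannabinoid receptor, had a lowest, median and highest signal of 278, 435 and 484 at 1 h and of 5.28, 15.1 and 46.7 at 4 h. It fell by 3.70 ± 0.23 (SE), 13-fold, with an adjusted p of 8.09e-08. Gpr183, the oxysterol receptor EBI2, had signals of 1004 to 3024 with a median of 2323 at 1 h and of 136 to 260 with a median of 174 at 4 h, and fell by 3.28 ± 0.16 (SE), adjusted p 1.59e-08. Cxcr4, the receptor for CXCL12, went from 5511 to 646 and fell by 3.63 ± 0.38 (SE). None of the 3 overlapped between the times. Lpar6, a receptor for lysophosphatidic acid, fell by 2.73 ± 0.21 (SE), the proton-sensing Gpr65 by 2.67 ± 0.24 (SE) and the monocyte chemokine receptor Ccr2 by 2.39 ± 0.16 (SE), a call lost without the block, adjusted p 0.072. The 4 rises were Hcar2, Fpr2, the nucleotide receptor P2ry2 at 3.03 ± 0.39 (SE) and the medium-chain fatty acid receptor Gpr84 at 2.28 ± 0.44 (SE).

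Several regulators of G protein and cAMP signalling fell too. Of 20 regulators of G proteins and cAMP 9 fell and 2 rose, beside the same shares, with a median of -0.42. Rgs2, which shortens Gq signalling, had medians of 12027 at 0 h, 5417 at 1 h and 602 at 4 h, and fell by 3.09 ± 0.35 (SE) in the late phase. Arrdc3, an alpha-arrestin, went from 1883 to 260 and fell by 2.96 ± 0.22 (SE), and the phosphodiesterase Pde7a fell by 1.36 ± 0.13 (SE). Gem, a small GTPase, rose by 1.49 ± 0.33 (SE). With equal array medians 6 of the list fell and 4 rose.

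**Figure D3:**
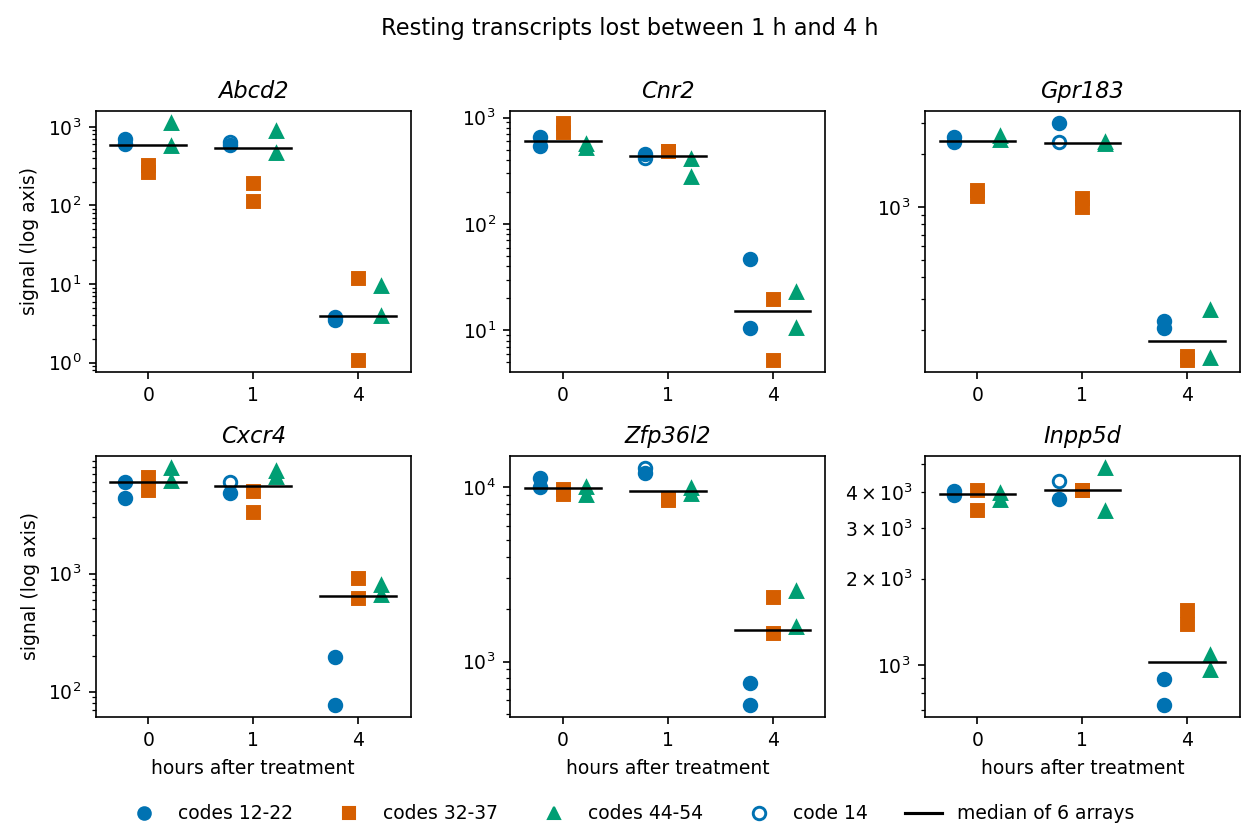
Signal on a log axis at 0, 1 and 4 hours for 6 transcripts that fell from 1 h to 4 h, 1 point per array, with shape and colour for the range of array codes, an open circle for code 14 and a bar at the median of 6 arrays. Every 4 h array of Abcd2, Cnr2, Gpr183, Cxcr4, Zfp36l2 and Inpp5d lies below every 1 h array, and the 1 h medians lie near those of 0 h for all but Cnr2.

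Sensors and brakes of the pathway changed in both directions. Of 23 pattern recognition receptors and adaptors 9 rose and 2 fell, beside 9.83% and 21.1% of the brighter genes. Tlr1, a partner of Toll-like receptor 2, had a lowest, median and highest signal of 840, 1061 and 2909 at 1 h and of 2872, 8363 and 10540 at 4 h, a rise of 2.23 ± 0.20 (SE) with an adjusted p of 1.88e-06. Tlr2 itself had medians of 15940 and 22475 and a difference of 0.83 ± 0.28 (SE), with an adjusted p of 0.0596 that fell under the threshold in 5 of 28 alternatives. Tlr8 fell by 1.66 ± 0.38 (SE) and Tlr4, the receptor for lipopolysaccharide, by 0.97 ± 0.16 (SE). Among 13 genes that restrain such signalling 4 rose and 5 fell, and 3 fell under either of the other scalings. Irak3, a kinase-like inhibitor of the Myddosome, rose by 2.11 ± 0.24 (SE), whereas the inositol phosphatase Inpp5d went from a median of 4075 to 1025 and fell by 1.91 ± 0.15 (SE), and Tnfaip8l2 fell by 1.86 ± 0.18 (SE).

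Il10, named in the title of the series, was already high at 1 h and showed no late call. Its signal ran from 267 over a median of 1650 to 2127 at 1 h and from 482 over 1460 to 2980 at 4 h. The ranges of the times overlapped almost fully, and the difference was 0.27 ± 0.54 (SE) with an adjusted p of 0.809. Without the array with code 14, the lowest at 1 h, it was -0.12 with an adjusted p of 0.919. In the IL-10 and anti-inflammatory list 5 of 16 members rose and 3 fell, beside 9.83% and 21.1% of the brighter genes. The falls were thus near that share. There were 3 rises after quantile normalization and 8 with equal array medians. Il1rn, the antagonist of the interleukin 1 receptor, rose by 3.09 ± 0.36 (SE) and the transcription factor Batf by 2.5 ± 0.20 (SE). Hmox1, heme oxygenase 1, rose by 2.25 ± 0.36 (SE), while the receptor chain Il10ra fell by 1.06 ± 0.21 (SE). At 1 h Hmox1 read 2557 and 2512 on codes 12 to 22 and 1348 to 5074 on the others. At 4 h it read 4999 and 3769 on codes 12 to 22 and 22840 to 29870 on the others.

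In the antigen presentation list the largest rises were in surface molecules for contact with T cells. Cd274, the ligand of PD-1, had a lowest, median and highest signal of 145, 522 and 846 at 1 h and of 1798, 5085 and 10700 at 4 h, a rise of 3.36 ± 0.21 (SE) with an adjusted p of 9.45e-08. Cd40 rose by 3.0 ± 0.36 (SE), from a median of 759 to 6305, also with no overlap. Icam1 rose by 1.48 ± 0.41 (SE), adjusted p 0.0207, and by 1.05 without the array with code 14. Its call was lost without the 4 h arrays with code 16, at an adjusted p of 0.053, or code 22, at 0.0529. These 3 and Slfn2 were the 4 called of 22 members, against 7 with equal array medians. The 4 were rises and none fell, beside 9.83% higher and 21.1% lower among the brighter genes. None of the measured class I and class II chains passed, as with H2-Ab1 at 0.42, adjusted p 0.323, and H2-K1 at 0.07, adjusted p 0.757. Of 20 uptake receptors 6 rose and 3 fell, beside the same shares, and none fell with equal array medians. The inhibitory Fc receptor Fcgr2b rose by 3.09 ± 0.24 (SE), from a median of 2226 to 19649, and the oxidised lipoprotein receptor Olr1 by 2.12 ± 0.34 (SE).

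Metabolic and stress genes also belonged to the late wave. Of 27 genes of amino acid transport and stress 13 rose and 2, Sesn1 and Sesn3, fell, beside 9.83% and 21.1% of the brighter genes. Beside Slc7a11, the zinc importer Slc39a14 rose by 3.03 ± 0.16 (SE), the arginine transporter Slc7a2 by 2.51 ± 0.21 (SE) and thioredoxin reductase, Txnrd1, by 1.97 ± 0.14 (SE). Of 19 glycolysis and HIF-1 target genes 10 rose and none fell, beside the same shares, with a median of 0.52. The glucose transporter Slc2a1 rose by 2.28 ± 0.14 (SE), from a median of 2372 to 12460, and Pfkfb3, which makes the activator of phosphofructokinase, by 2.25 ± 0.31 (SE). Ldha gave 0.16, adjusted p 0.383. In the fatty acid oxidation list 6 of 18 fell, beside 21.1% of brighter genes, and 3 fell under either of the other scalings. Among the 6 were Abcd2 and Cpt1a, the gate of mitochondrial oxidation, at -1.37 ± 0.14 (SE). Fabp4, a lipid carrier, rose by 1.84 ± 0.31 (SE). Ch25h, which makes a precursor of the oxysterol that binds Gpr183, rose by 3.04 ± 0.37 (SE).

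Among survival and cell death genes rises outnumbered falls, with a median of 0.45 beside -0.15 for all genes. The cell cycle and chromatin lists were mixed or low. Of 24 survival and cell death genes 11 rose and 4 fell, beside 9.83% and 21.1% of the brighter genes. With equal array medians 2 fell. The death receptor Fas rose by 2.93 ± 0.37 (SE), Casp4 by 2.11 ± 0.25 (SE) and the protective Bcl2l1 by 1.42 ± 0.22 (SE). Bmf, a pro-apoptotic BH3-only protein, went from a median of 737 to 118 and fell by 2.64 ± 0.21 (SE). Of 28 cell cycle genes 9 fell and none rose, beside 21.1% of brighter genes lower. E2f2, a factor of the S phase program, fell by 2.52 ± 0.19 (SE), from a median of 487 to 73.6. With equal array medians 3 cell cycle genes fell and 2 rose. Of 23 chromatin regulators 7 fell and 2 rose, beside 21.1% and 9.83% of the brighter genes, and 3 fell and 7 rose with equal medians. Kdm2b, a histone demethylase of a Polycomb complex, fell by 1.74 ± 0.13 (SE) and Kdm4a, another demethylase, rose by 1.39 ± 0.27 (SE). Of 17 cholesterol genes 4 rose and 4 fell, near the 21.1% of brighter genes lower. They were 5 and 1 with equal array medians, and 2 and 3 without the array with code 14. Of 16 PI3K and inositol lipid genes 2 rose, among them the regulatory subunit Pik3r5 at 1.62 ± 0.20 (SE), and 3 fell, both near the shares of the brighter genes. They were 5 and 1 with equal array medians, and 2 and 1 without that array.

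**Figure D4:**
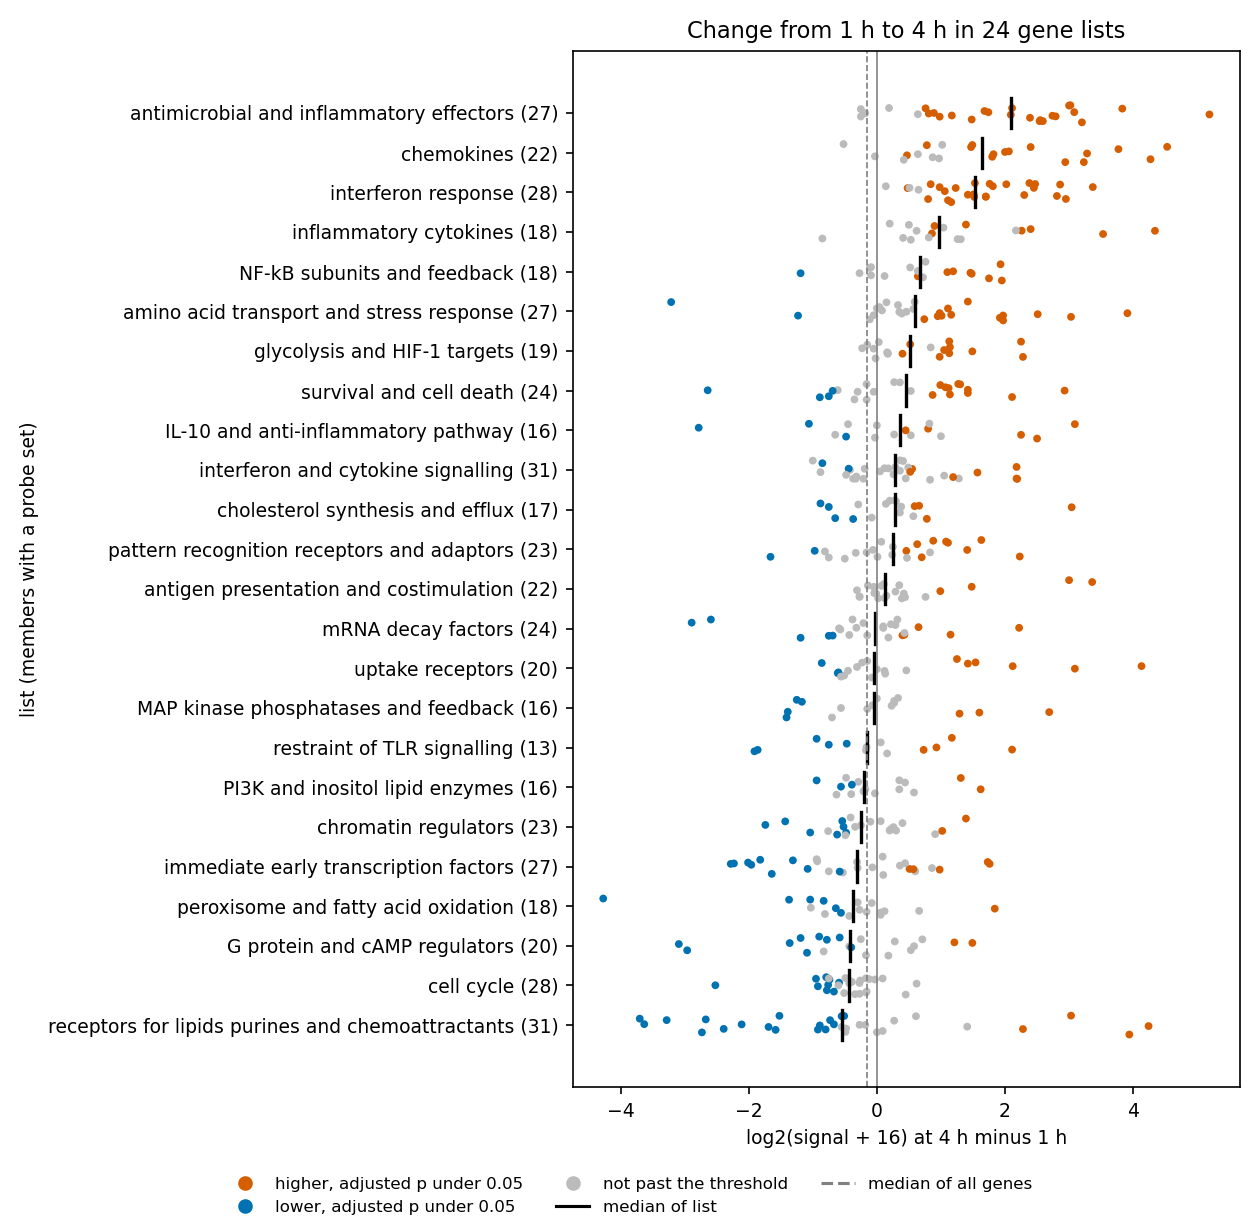
Change in log2(signal + 16) from 1 h to 4 h for every measured member of 24 gene lists, 1 point per gene, with calls above 0 and below 0 in colour, a bar at the list median and a dashed line at the median of all genes, -0.15. Effectors, chemokines and interferon response genes lie mostly to the right, with medians of 2.09, 1.64 and 1.53, and receptors for lipids, purines and chemoattractants lie lowest at -0.55.

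The late change was called different between the ranges of array codes for a few genes. With 2 arrays a time in each range, a gene without that call may still differ. Fewer probe sets passed in a single range, where 2 arrays stood against 2, with 2.75% higher and 4.35% lower in codes 12 to 22, 1.22% and 1.72% in codes 32 to 37, and 1.42% and 2.2% in codes 44 to 54. An F test over the ranges called 91 of 45037 probe sets (0.202%), and 6 of the genes described here were among them. Il6 had signals of 21.3 and 80.8 at 1 h and of 18313 and 10201 at 4 h on codes 12 to 22, but of 471 and 327 at 1 h and of 670 and 292 at 4 h on codes 32 to 37. The log2 change was 7.83 in codes 12 to 22, 0.17 in codes 32 to 37 and 5.01 in codes 44 to 54, around a mean of 4.34 ± 0.89 (SE) with an adjusted p of 0.00281, and the adjusted p of the difference was 0.0265. Il12b, the p40 chain of interleukins 12 and 23, reached 12195 and 6337 at 4 h on codes 12 to 22 and no more than 397 on the other 4 arrays, with changes of 7.65, 0.74 and 2.20. Shisa3, an adaptor that binds Wnt and FGF receptors, changed by 7.32, 0.54 and 3.73, adjusted p 0.00502. For Dusp16, Ikbke and Tnip1 the changes in codes 12 to 22 were 4.58, 3.68 and 3.04, and in codes 32 to 37 they were 1.58, 0.63 and 0.88.

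The level at 1 h took part in those differences. On codes 12 to 22 both 1 h arrays read 223 and 219 for Dusp16, where the other 4 read 1067 to 1280, and 1922 and 2364 for Tnip1, where the others read 4949 to 6458. Both 4 h arrays of codes 12 to 22 were the highest of all for Il6, Il12b, Shisa3, Ikbke and Tnip1, and for Dusp16 only one of them was. Without the array with code 14, Il6, Il12b, Dusp16, Ikbke and Tnip1 were no longer called different between ranges, with adjusted p-values of 0.0948, 0.114, 0.114, 0.0948 and 0.156, although their changes in codes 12 to 22 were still 7.14, 6.87, 4.59, 3.64 and 2.89. Shisa3 stayed under the threshold at 0.0195. With that array left out, 9 probe sets in all were called.

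**Figure D5:**
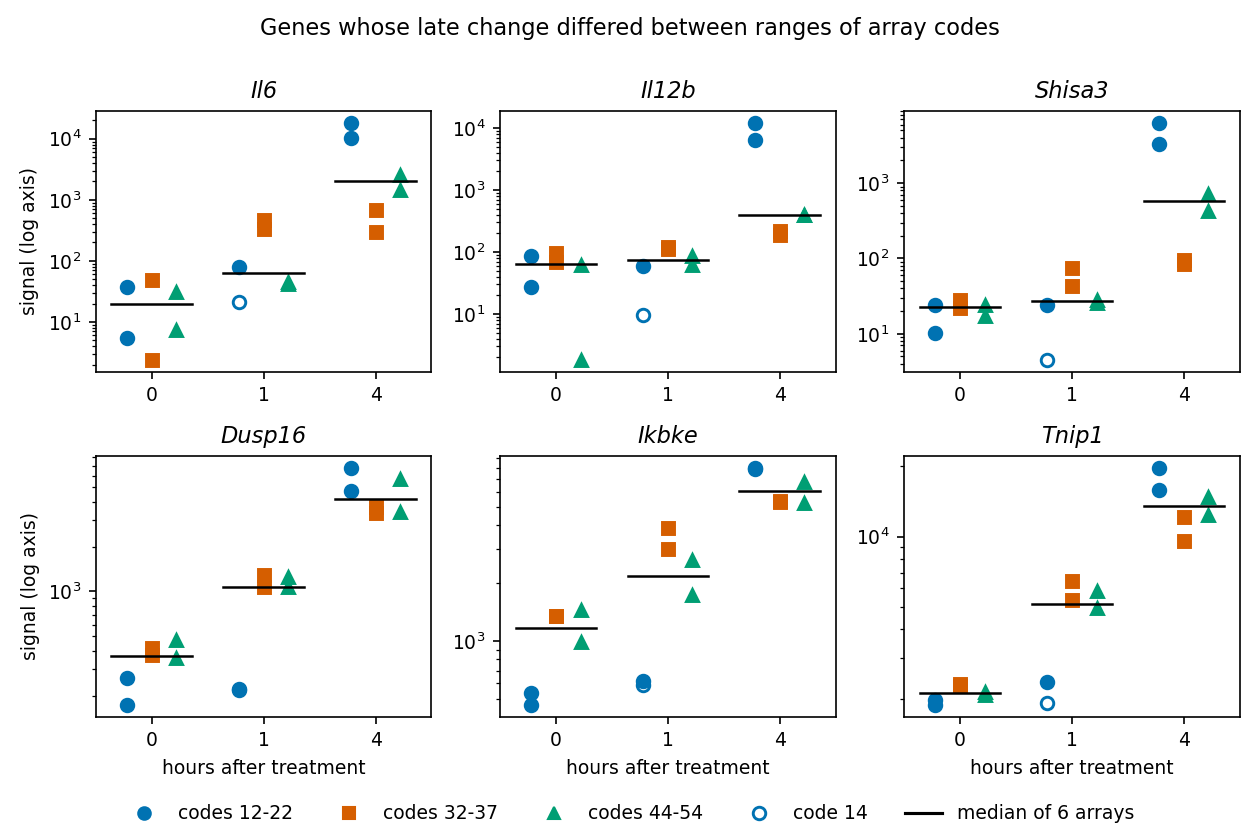
Signal on a log axis at 0, 1 and 4 hours for the 6 genes whose late change differed between ranges of array codes, 1 point per array, with shape and colour for the range, an open circle for code 14 and a bar at the median of 6 arrays. The 4 h circles, codes 12 to 22, stand above the 4 h squares, codes 32 to 37, for all 6 genes, and for Dusp16, Ikbke and Tnip1 the 1 h circles stand below the other 1 h points.

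Markers of cell types were followed for a shift in the cells sampled. The mean log2 level of 13 macrophage markers was 12.65 to 13.15 on the 1 h arrays and 13 to 13.23 on the 4 h arrays, and Marco and Msr1 rose while Cd163 fell. Csf1r had medians of 36789 and 30091 and Lyz2 of 44717 and 40273, with no call. The means were 6.20 to 6.75 and 6.03 to 6.46 for 10 T cell markers, 6.05 to 7.19 and 5.6 to 6.73 for 7 B cell markers, 5.21 to 6.03 and 5.22 to 5.91 for 7 NK cell markers, and 6.94 to 7.95 and 6.69 to 8.32 for 10 neutrophil markers. Cd3e, of the T cell receptor complex, had medians of 18.9 and 14.8, and Cd79a, of the B cell receptor, 19.7 and 17.8, near the bottom of the scale. Of these lists the T cell list had 1 fall, Cd28, the B cell list 2, Cd79b and Ighm, the neutrophil list 1 rise, Csf3r, and the NK list no call. Stromal markers ranged from 6.94 to 10.11 at 1 h and from 7.24 to 10 at 4 h between arrays, with 1 fall, Col1a2. The level of Col1a2 followed the code ranges. At 1 h it read 329 and 430 on codes 12 to 22, 1388 and 2163 on codes 32 to 37, and 5189 and 6407 on codes 44 to 54. Of 9 dendritic cell markers Itgax rose, and none of 6 erythroid markers was called. The falls of Cd79b, Ighm and Col1a2 were not called under quantile normalization. The part of these markers in the results above was not tested.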

How the data were processed

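Per the submitters' processing notes, the authors turned probe intensities into the deposited signals with MAS5 and GCOS. Versions and settings were not given in the sources used here. The deposited signal is a linear intensity, and its trimmed mean is 500.0 on every array. No array pair held identical values, and r of log2 values within a time was 0.925 to 0.959. The number of arrays limits the precision.

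The fit used limma 3.58.1 in R 4.3.3 on log2(signal + 16) of 45037 probe sets (64 controls left out). It took all 18 arrays, with the code range as a fixed block. On simulated arrays with independent noise it recovered 26% of 50 changes of 1.5-fold, 66% of 2-fold, 92% of 4-fold and 100% of 8-fold. There were 8 false calls. A missing call here therefore does not show that a gene was unchanged. Of the 45037 probe sets, 34945 had 1 gene symbol. A gene was represented by its brightest such probe set on average, giving 18193 genes, and 585 of 639 listed genes.

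Named were Il10, Tlr2, the 15 largest rises and falls, the 10 largest transient falls, the 8 largest continued rises and up to 4 called members of each list. Other genes were chosen after their values were seen. Members and lists were chosen with earlier results of these data known. Alternatives were block, scaling, pseudocount, filter on dim probe sets, prior variance and each array left out. Ranges refitted with an array left out were added after seeing the data.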

Additional observations from a re-analysis of the deposited data

Results flagged for a closer look

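For 28 of 354 groups of 6 arrays of the named genes, the highest or lowest array lay far from the other 5 by the gap between neighbouring values, and chance alone flags about 1 in 20 groups. The 1 h array with code 14 was the far array in 11 of them, always the lowest: its signal was 220 for Acod1, 384 for Ccl4, 251 for Dusp5, 1242 for Egr1, 11362 for Fos, 13.2 for Gem, 1683 for Icam1, 267 for Il10, 9.52 for Il12b, 903 for Nfkbid and 518 for Nlrp3. Other 1 h arrays were the lowest for Acox3 at 153 (code 36), for Bcl2l1 at 294 (code 33), and for Batf at 114, Cnr2 at 278 and Pfkl at 880 (code 54).

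At 4 h the array with code 37 was far below the rest for Cnot6l at 691, Tlr8 at 129 and Zfp36l1 at 994, the array with code 22 for Cyp51 at 482, Nfkbid at 647 and Nr4a1 at 318, and the array with code 16 for Klhl6 at 48.3, while that array was far above the rest for Acod1 at 35941. At 0 h the array with code 32 was high for Csf2 at 44.4 and Saa3 at 586 and low for Socs1 at 6.62, and the array with code 44 was high for Steap4 at 22.3.

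The change from 1 h to 4 h differed between the ranges of array codes, in an F test by limma, for Dusp16 (adjusted p 0.0265), Ikbke (0.023), Il12b (0.0265), Il6 (0.0265), Shisa3 (0.00502) and Tnip1 (0.0375).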

How the results depend on the processing

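Of 3294 pairs of a named gene and an alternative, 3193 kept direction and side of the threshold, 95 lost the call, in 18 genes, 5 gained it, all Tlr2, and 1 reversed, Il10, at -0.12 without the 1 h array with code 14 (-0.12 to 0.54 over single arrays left out). Probe sets higher at 4 h numbered 2242, and 4006 with equal array medians. Those lower numbered 5122, and 3200 after quantile normalization and 2197 with equal array medians. Leaving out each array in turn gave 1933 to 2269 higher, 4233 to 5085 lower and 6166 to 7354 in all. Without the block for the range of codes 1597 rose and 3554 fell, and 8 named calls were lost. With the range as a random block, whose correlation was 0.124, 1942 rose and 4411 fell. The count that differed between ranges, 91, was 324 with a pseudocount of 64, 322 and 489 with the filter and the stricter filter on dim probe sets, and 506 with an intensity trend in the prior variance. It was 2 to 125 with single arrays left out, so its size depends on single arrays. Signal over background limits genes such as Abcd2 at 4 h and Lipm at every time. The causes were not tested.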

Other observations

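Outside the named genes, chosen here after their values were seen, some genes differed in their late change between the ranges of array codes, by the F test of that difference and with no call given within a range. Fnip2, a folliculin partner, changed by -1.03 in codes 12 to 22, 2.64 in codes 32 to 37 and 1.32 in codes 44 to 54 (adjusted p of the difference 0.00502, and 0.0157 without the 1 h array with code 14). Irf2bpl changed by -2.63, 1.58 and -1.0 (0.00804 and 0.0157), and Tent5c, a poly(A) polymerase that lengthens mRNA tails, by -0.31, 3.54 and 2.54 (0.0122 and 0.0222). Lhfpl2 changed by -2.38, 1.05 and 0.23 (0.0069 and 0.0363). Of the 91 probe sets called, 71 had their largest change in codes 12 to 22, 17 in codes 32 to 37 and 3 in codes 44 to 54, and 8 of the 91 were also called without that array.

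Leaving out that array also brought down transcripts that the fit on all arrays did not call. Cited2, a regulator of CBP and p300, gave -1.13 with an adjusted p of 0.0116 without it and -0.84 with 0.103 on all arrays. Trib1, a pseudokinase, gave -0.80 with 0.0189 and -0.58 with 0.138, and Ptger4, a prostaglandin E2 receptor, -0.73 with 0.0328 and -0.49 with 0.245.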
